A study of Mus musculus with 6 samples.

Results

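Bcl11a, Bcl11b, Tcf7, Lef1, Tcf7l2, Sox4 and Satb1 are 7 genes for DNA-binding proteins of lymphoid progenitors, among 27827 gene names on the array. All probes carrying one of these names were taken, whatever their values, which gave 17 of the 41174 probes. The cells were mouse pre-pro-B cells (fraction A) that lack Ebf1, the transcription factor needed to enter the B lineage. Interleukin 7, stem cell factor, Flt3 ligand and a layer of OP9 stroma kept them in culture. One group, Ebf1 virus, received a retrovirus that encodes Ebf1 and EGFP (pMYs-Ebf1beta-IRES-EGFP). The other, control virus, received the same vector with EGFP alone (pMYs-IRES-EGFP). Both groups therefore carried the Ebf1 deletion, and Ebf1 was supplied from the retroviral vector. EGFP-positive cells were sorted a day after infection, and each group had 3 arrays. The labels do not say whether the 3 samples of a group were separate cultures or animals, so p-values measure only the spread between these samples, which may be technical.

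Bcl11a and Bcl11b are zinc finger proteins that recruit the chromatin complexes NuRD and BAF. Bcl11a is required for early B cell development and Bcl11b for T cell commitment. Tcf7 (TCF-1), Lef1 and Tcf7l2 (TCF-4) bind the same short DNA motif through an HMG box. They activate target genes with beta-catenin, the effector of Wnt signalling, and repress them with Groucho corepressors. Tcf7 starts the T cell programme downstream of Notch, and Lef1 supports the survival of early B cells. Sox4 is another HMG-box protein, needed for pro-B cell expansion, and Satb1 organises chromatin in thymocytes and lymphoid progenitors.

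Signal is given as a multiple of the signal at each array's 75th percentile, and changes are Ebf1 virus minus control virus on the log2 scale. Signals of different probes are not comparable, so only the same probe is compared between arrays. A probe was tested where it was well above background on all 3 arrays of at least 1 group, and a call is an adjusted p under 0.05 by limma with Benjamini-Hochberg adjustment over all 20452 tested probes. Among them 21.7% were called, with 2349 higher (11.5%) and 2085 lower (10.2%). Scaling to the median in place of the 75th percentile gave 1256 higher and 2642 lower, and moved the median change of all tested probes to -0.37, against -0.06. The share of probes well above background was 50.3% to 59.8% on Ebf1 virus arrays, against 46.3% to 50.2% on control virus arrays. The arrays lay on 3 slides, of which 1 held both groups, with Ebf1 virus replicate 1 and control virus replicate 2. A fit with slide as a fixed block takes its change from those 2 arrays alone, and on the other slides slide and group cannot be told apart. Normexp, an alternative to the scanner's background subtraction, models background and signal together and shrinks the changes of dim probes. One Ebf1 probe was well above background on all 6 arrays and its change was -0.15 ± 0.21 (limma adjusted p = 0.646), while the other was at background on all 6. It was not determined whether the viral cDNA contains either probe, so they check nothing about the labels.

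Of the 17 probes, 10 were tested, and these cover Bcl11a, Tcf7, Lef1, Sox4 and Satb1. Bcl11a and Tcf7 rose with Ebf1 virus on every tested probe, and Lef1 fell on both of its tested probes. Sox4 and Satb1 did not pass. By probe, 5 of 10 were called higher, against 11.5% of all tested probes, 2 lower, against 10.2%, and 3 did not pass. On 9 of the 10 probes the groups did not overlap, including those of Sox4 and a Satb1 probe, which did not pass. The share of all tested probes without overlap was not determined, so this count sets the members apart from no other genes. By gene, 3 of the 5 tested members were called, 60% against 23.6% of all 13835 tested genes, a share that rests on 5 genes. Higher calls made up 12.6% of all tested genes and lower calls 11%. Bcl11b and Tcf7l2 were too dim to test. As these are bulk samples of sorted cells, fewer cells with a transcript and less of it per cell cannot be told apart.

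**Figure D1:**
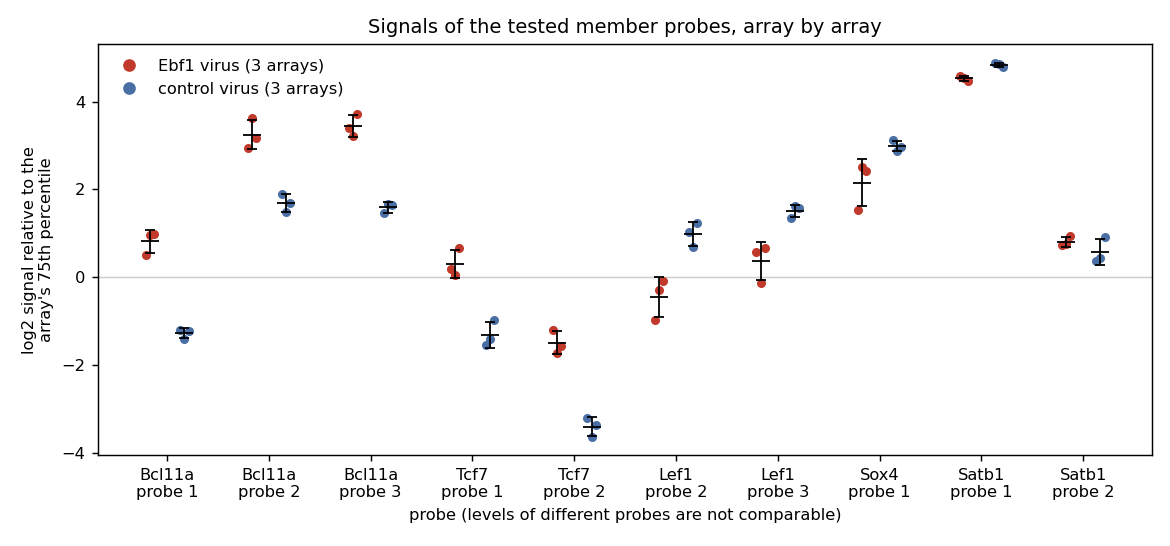
Log2 signal relative to the array's 75th percentile for the 10 tested probes of the 7 genes, with each of the 3 Ebf1 virus arrays and 3 control virus arrays as a point and mean and SD as bars. The groups are apart on all probes except probe 2 of Satb1, where the highest control virus array lies among the Ebf1 virus arrays.

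Windows at annotated starts of 4 members are shown as they were searched for the motifs that Ebf1 and the TCF/LEF proteins bind. RefSeq windows (GRCm38.p6) of 250 bases before to 50 bases after an annotated start matched all 7 members, 16 windows in all. The core of the Ebf1 motif was searched as CCCNNGGG and the TCF/LEF motif as CTTTGA, on both strands, and no match of one overlapped a match of the other. Capitals mark matches of CCCNNGGG and CTTTGA, which on the other strand reads TCAAAG. The windows shown for Bcl11a (chr11:24080445-24080744, plus strand), Bcl11b (chr12:108003365-108003664, minus strand) and Tcf7 (chr11:52282965-52283264, minus strand) are at the most upstream of the annotated starts used. The Tcf7 window holds an open reading frame that opens with atg before this start and runs to the window's end. It is therefore at least partly coding sequence, and promoter sequence further upstream of Tcf7 may lie outside the windows searched. That of Lef1 (chr3:131156044-131156343, plus strand) is the only Lef1 window with a match.
Bcl11a promoter: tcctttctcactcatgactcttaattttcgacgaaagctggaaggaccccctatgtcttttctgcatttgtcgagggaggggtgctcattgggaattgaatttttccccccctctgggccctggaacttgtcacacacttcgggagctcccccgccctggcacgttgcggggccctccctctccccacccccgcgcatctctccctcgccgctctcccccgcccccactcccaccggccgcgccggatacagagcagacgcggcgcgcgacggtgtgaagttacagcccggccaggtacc
Bcl11b promoter: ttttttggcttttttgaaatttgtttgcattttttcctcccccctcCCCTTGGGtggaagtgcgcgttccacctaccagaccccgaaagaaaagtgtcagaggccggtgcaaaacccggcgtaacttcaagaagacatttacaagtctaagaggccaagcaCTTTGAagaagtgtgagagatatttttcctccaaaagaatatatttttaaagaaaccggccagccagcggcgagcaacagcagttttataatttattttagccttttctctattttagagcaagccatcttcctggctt
Tcf7 promoter: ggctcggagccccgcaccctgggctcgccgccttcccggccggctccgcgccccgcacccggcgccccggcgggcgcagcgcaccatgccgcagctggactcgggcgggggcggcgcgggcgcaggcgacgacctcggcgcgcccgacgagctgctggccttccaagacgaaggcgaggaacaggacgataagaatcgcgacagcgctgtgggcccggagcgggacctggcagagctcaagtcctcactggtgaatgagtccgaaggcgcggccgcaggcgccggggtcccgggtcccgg
Lef1 promoter: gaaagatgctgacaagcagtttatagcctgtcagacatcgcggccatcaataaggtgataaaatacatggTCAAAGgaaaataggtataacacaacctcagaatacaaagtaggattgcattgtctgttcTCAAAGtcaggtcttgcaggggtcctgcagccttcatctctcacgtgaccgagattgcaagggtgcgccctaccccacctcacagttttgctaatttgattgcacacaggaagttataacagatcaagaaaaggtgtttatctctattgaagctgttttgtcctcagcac
CCCNNGGG was in 1 of the 16 windows, that of Bcl11b, against 13.7% of all 32851 windows. CTTTGA was in 2 windows, those shown for Bcl11b and Lef1, against 16% of all. The windows of Bcl11a and Tcf7 hold neither motif, and most of all windows lack each of them too. No sequence outside the windows was searched, so binding of Ebf1 or TCF/LEF proteins at these genes was not tested.

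Bcl11a rose 2.94- to 4.26-fold on 3 probes on chromosome 11 (mm9, plus strand). Probe 1 (23989728 to 23989787) read 1.42, 1.95 and 1.98 on the Ebf1 virus arrays, against 0.433, 0.376 and 0.431 on the control virus arrays. Every Ebf1 virus array was above every control virus array, and the lowest of them, replicate 1, was still more than 3 times the highest control. The change was 2.09 ± 0.18, or 4.26-fold (SE; 95% interval 1.68 to 2.50; limma adjusted p = 0.000153).

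Probe 2 of Bcl11a lies 83080 bases further along (24072868 to 24072927) and read 7.73, 12.3 and 9.07 with Ebf1 virus, against 3.72, 2.82 and 3.24 with control virus. Its groups were apart as well, with a change of 1.55 ± 0.21 (limma adjusted p = 0.0017). Probe 3 begins 209 bases after the end of probe 2 (24073137 to 24073194) and read 10.6, 9.23 and 13.1 with Ebf1 virus, against 2.74, 3.20 and 3.13 with control virus. Here the control virus arrays were close together and the Ebf1 virus arrays spread by less than a doubling. The change of probe 3, the brightest and the one used for the gene, was 1.85 ± 0.17, or 3.60-fold (limma adjusted p = 0.000259). The call of all 3 probes held under every alternative setting tried, including slide as a fixed block, which gave 1.91, 1.46 and 1.73.

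Bcl11b, the T cell paralogue of Bcl11a, was at or near background on both of its probes on chromosome 12 (mm9, minus strand). Probe 1 (109148932 to 109148991) had processed signals of 7.39, 2.33 and 1.93 with Ebf1 virus, against 2.65, 2.40 and 1.69 with control virus, and was well above background on none of the 6 arrays. Probe 2 (109153847 to 109153906) had signals of 7.27, 14.0 and 14.8 with Ebf1 virus, against 2.75, 4.00 and 1.78 with control virus. It was well above background on Ebf1 virus replicates 2 and 3 and on no control virus array. The lowest signal called well above background was between 8.42 and 10.6 on Ebf1 virus arrays and between 8.39 and 13.2 on control virus arrays. Probe 2 was therefore untested. Leaving out Ebf1 virus replicate 1 removed the dim Ebf1 virus array, so that the probe passed the filter through the other two alone and was called (limma adjusted p = 0.0113). As all control virus arrays were at background, that p is no support for a rise, and the Ebf1 virus mean was not above the lowest measurable control virus signal, so no fold is given. With no filter on dim probes the limma adjusted p was 0.104. No call is made for Bcl11b with all 6 arrays.

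Tcf7 rose 3.06- and 3.75-fold on its 2 probes on chromosome 11 (mm9, minus strand). Probe 1 (52066114 to 52066173), used for the gene, read 1.14, 1.04 and 1.59 with Ebf1 virus, against 0.345, 0.376 and 0.509 with control virus. Replicate 3 was the highest of the 3 in both groups, and the groups did not overlap. The change was 1.61 ± 0.22, or 3.06-fold (95% interval 1.09 to 2.13; limma adjusted p = 0.00196). With slide as a fixed block the change was 1.60, with a limma adjusted p of 0.0581, so the call was lost.

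Probe 2 of Tcf7 (52066831 to 52066890, 657 bases from probe 1) was dimmer, at 0.433, 0.304 and 0.338 with Ebf1 virus, against 0.108, 0.0808 and 0.0971 with control virus. The lowest Ebf1 virus array was close to 3 times the highest control virus array. The change was 1.91 ± 0.19, or 3.75-fold (limma adjusted p = 0.000347). The size depends on how background is treated, since normexp background correction gave 1.01, or 2.01-fold, still called.

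Lef1 fell on 2 of its 3 probes on chromosome 3 (mm9, plus strand), in the opposite direction to Tcf7. Probe 2 (130907851 to 130926012) covers 18162 bases of genome for 60 bases of sequence, so it joins separate exons and reads spliced RNA. It is shown because it is the only member probe that reads across such a junction.
Lef1 probe 2: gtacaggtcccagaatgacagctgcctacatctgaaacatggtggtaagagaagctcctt
This probe read 0.509, 0.822 and 0.939 with Ebf1 virus, against 2.03, 1.61 and 2.34 with control virus. All 3 Ebf1 virus arrays were below all 3 control virus arrays, with replicate 1 the lowest. The change was -1.43 ± 0.26, or 2.69-fold lower (limma adjusted p = 0.00713), and -1.67 between the 2 arrays that share a slide.

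Probe 3 of Lef1 (130927036 to 130927095), used for the gene, read 1.49, 0.919 and 1.58 with Ebf1 virus, against 2.54, 3.07 and 2.97 with control virus. The groups were apart again, though here replicate 2 was the lowest Ebf1 virus array. The change was -1.14 ± 0.23, or 2.20-fold lower (95% interval -1.67 to -0.61; limma adjusted p = 0.0112). The limma adjusted p was 0.0697 with no filter on dim probes and 0.153 with slide as a fixed block, so both ended the call. Probe 1 (130820056 to 130820115) had signals of 2.24, 2.74 and 4.72 with Ebf1 virus, against 3.20, 2.88 and 2.16 with control virus, at background on all 6 arrays.

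Tcf7l2, the TCF best known from the intestinal epithelium, had 4 probes on chromosome 19 (mm9, plus strand), all dim and untested. Probe 4 (56007586 to 56007645) had signals of 23.8, 11.6 and 19.5 with Ebf1 virus, against 6.81, 6.98 and 3.15 with control virus. The groups did not overlap, and only Ebf1 virus replicates 1 and 3 were well above background. Against the lowest measurable signal of the control virus arrays, the Ebf1 virus mean was at least 1.34-fold higher, a bound with no test. Leaving out Ebf1 virus replicate 2, the array that failed the filter, let the probe pass and be called (limma adjusted p = 0.0248). That p again sets the brighter group against control virus arrays at background and is no support for a rise. With no filter on dim probes the limma adjusted p was 0.131. Probes 1 to 3 (55982975 to 55983034, 55999411 to 55999470 and 56006460 to 56006519) had signals between 1.84 and 12.8. Probes 1 and 2 were each well above background on 1 Ebf1 virus array, and probe 3 on none.

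**Figure D2:**
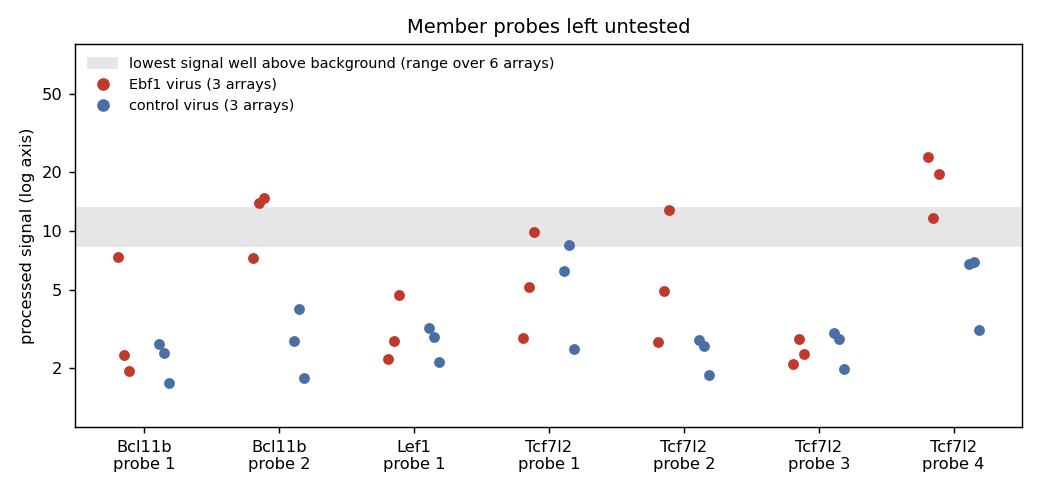
Processed signal on a log axis for the 7 untested probes of Bcl11b, Lef1 and Tcf7l2, with the 3 Ebf1 virus and 3 control virus arrays as points and a band for the range over the 6 arrays of the lowest signal called well above background. Every control virus point of probe 2 of Bcl11b and probe 4 of Tcf7l2 lies under the band.

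Sox4 was lower on every Ebf1 virus array but did not pass the test. Its only probe (chromosome 13, 29044066 to 29044125, mm9, minus strand) read 2.90, 5.70 and 5.33 with Ebf1 virus, against 8.72, 7.38 and 7.79 with control virus. Ebf1 virus replicate 1 was well below the other two, while the control virus arrays were close together. The change was -0.84 ± 0.26 (95% interval -1.45 to -0.22; limma adjusted p = 0.0597). The call depended on the processing: the limma adjusted p was 0.00897 after normexp, 0.0069 after median scaling, 0.0289 with a trended robust prior and 0.0262 with slide as a fixed block. The last of these gave a change of -1.35, which is the difference between the only 2 arrays of opposite groups on 1 slide, Ebf1 virus replicate 1 and control virus replicate 2.

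Satb1 differed little between the groups. Probe 1 (chromosome 17, 51879137 to 51879196, mm9, minus strand) read 23.9, 23.2 and 22.3 with Ebf1 virus, against 29.5, 28.8 and 27.6 with control virus. The arrays of each group were close together and the groups did not overlap. The change was -0.31 ± 0.13 (95% interval -0.61 to -0.01; limma adjusted p = 0.132). Probe 2, 67267 bases away (51946464 to 51946523), read 1.66, 1.69 and 1.91 with Ebf1 virus, against 1.30, 1.36 and 1.89 with control virus. The groups overlapped through control virus replicate 3, and the change was 0.23 ± 0.18 (95% interval -0.20 to 0.65; limma adjusted p = 0.411), or -0.08 after median scaling. The intervals of the main fit hold changes of either sign or none for probe 2, and no decrease beyond -0.61 for probe 1. That limit depends on the processing. Probe 1 changed by -0.62 after median scaling, -0.44 after normexp and -0.16 after quantile normalisation, none of them called.

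**Figure D3:**
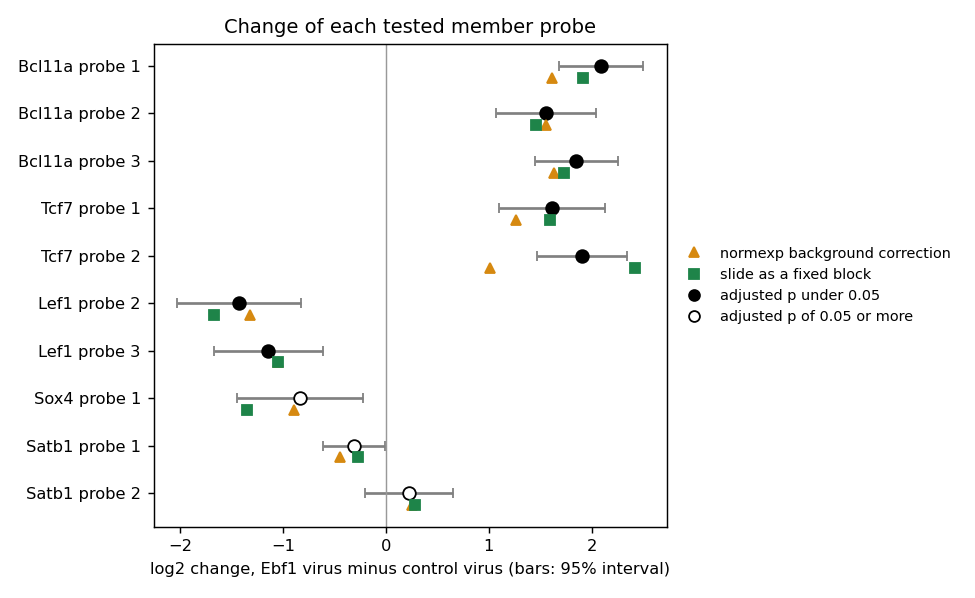
Log2 change, Ebf1 virus minus control virus, for each tested probe of the 7 genes, with 95% intervals as bars and the values from normexp background correction and from slide as a fixed block as triangles and squares. Filled points mark the 5 higher and 2 lower probes that were called, and open points mark Sox4 and Satb1, which were not.

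In a list made up almost wholly of other HMG-box genes, 15 of 19 genes were tested, of which 1 rose, 4 fell and 10 did not pass. The median change was -0.17, against -0.06 over all tested genes, and 33.3% were called, against 23.6%. Sox13, a repressive partner of TCF proteins, read 0.899, 0.508 and 0.690 with Ebf1 virus and was dim on every control virus array, none of which called it well above background. It was at least 17.7-fold higher with Ebf1 virus (limma adjusted p = 3.98e-06). Sox6, a Sox protein without a transactivation domain, read 1.49, 1.25 and 1.56 with Ebf1 virus, against 4.02, 4.76 and 4.41 with control virus. Its change was -1.62 ± 0.15 (limma adjusted p = 0.000275), and all 4 of its tested probes fell. Tox, which acts in T cell and innate lymphoid development, fell by 1.53 ± 0.25 in log2 units (limma adjusted p = 0.00455). Tox3 was at least 1.99-fold lower (limma adjusted p = 0.00203), a call lost after normexp (adjusted p = 0.279). Sox13 and Tox3 passed the filter only through the group in which they were bright, so their p-values are no support beyond the bounds. The fourth to fall was Hmgb1, on 1 of its 3 probes, with its call lost with slide as a fixed block (adjusted p = 0.0955). Tcf7l1, the remaining TCF/LEF gene, changed by 0.24 ± 0.15 and did not pass (limma adjusted p = 0.286).

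Of 15 beta-catenin cofactors and Groucho corepressors, 14 were tested, and 5 rose, none fell and 9 did not pass. The median change was 0.07 and 35.7% were called, all of them higher, against 23.6% of all tested genes called and 12.6% called higher. Tle6, a short Groucho family member, read 1.82, 1.79 and 2.16 with Ebf1 virus, against 0.570, 0.577 and 0.706 with control virus. The groups were well apart, with a change of 1.64 ± 0.16 (limma adjusted p = 0.00031). Tle2, a full-length Groucho corepressor, rose by 2.47 ± 0.22 (limma adjusted p = 0.000196), or 1.31 after normexp. Jup (plakoglobin), a relative of beta-catenin, was dim, with 1 of 3 control virus arrays above background. Its change was 2.32 ± 0.26 (limma adjusted p = 0.00067), or 0.66 after normexp. Ctbp2 rose by 0.77 ± 0.16 (limma adjusted p = 0.0133), a call lost after median scaling (adjusted p = 0.33), with slide as a fixed block (adjusted p = 0.235) and when 1 array was left out (adjusted p up to 0.056). The fifth was Tle3, on 1 of its 2 probes (limma adjusted p = 0.0304). Its call was lost with slide as a fixed block (adjusted p = 0.363), a replicate block (0.0867), median scaling (0.583) and when 1 array was left out (up to 0.111). Ctnnb1, beta-catenin itself, changed by -0.37 ± 0.15 and did not pass (limma adjusted p = 0.118).

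Wnt receptors and members of the beta-catenin destruction complex were mostly not called. Of 23 genes, 17 were tested, and 1 fell and 16 did not pass, or 5.88% called against 23.6% of all tested genes. The gene that fell was the receptor Fzd10, at -1.10 ± 0.14 on both of its probes (limma adjusted p = 0.00136; 0.0543 with slide as a fixed block). Of 15 Wnt/beta-catenin target genes, 8 were tested, and 3 fell, none rose and 5 did not pass. The share called was 37.5%, against 23.6% of all tested genes called and 11% called lower. Their median change was -0.47, or -0.28 after normexp, against -0.06 over all tested genes. Nkd1, a feedback inhibitor of Wnt signalling, read 0.233, 0.246 and 0.317 with Ebf1 virus, against 0.893, 1.13 and 1.03 with control virus. Its groups were apart by more than a doubling, with a change of -1.95 ± 0.18 (limma adjusted p = 0.000219). The adhesion receptor Cd44 fell by 1.09 ± 0.13 and Rnf43, a ubiquitin ligase that removes Wnt receptors, by 0.86 ± 0.13 in log2 units (limma adjusted p = 0.000948 for Cd44 and 0.00295 for Rnf43). With slide as a fixed block both lost their call, at adjusted p = 0.0547 for Cd44 and 0.0996 for Rnf43. Axin2 and Sp5, direct targets in many tissues, were at background on all 6 arrays.

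Of 26 genes of the NuRD and BAF complexes, all were tested, and 2 rose, 3 fell and 21 did not pass, 19.2% called against 23.6% of all tested genes. Smarcd2, a BAF subunit, read 21.5, 21.7 and 19.1 with Ebf1 virus, against 6.72, 6.57 and 6.05 with control virus. It rose by 1.69 ± 0.14 (limma adjusted p = 0.000128). Bcl7a, another BAF subunit, rose by 1.34 ± 0.15 (limma adjusted p = 0.00059). The BAF ATPase Smarca2 fell by 1.01 ± 0.19 on the log2 scale on 1 of 2 tested probes (limma adjusted p = 0.00944; 0.0816 with slide as a fixed block). The NuRD subunit Mbd3 fell by 0.53 ± 0.14 (limma adjusted p = 0.0303), a call lost after normexp (adjusted p = 0.0746), quantile normalisation, median scaling and either block.

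Early T cell genes, among which are targets of Tcf7 and Bcl11b, were mostly not called higher. Whether Tcf7 or Bcl11b acted on any of them in these cells was not tested. Of 27 genes, 21 were tested, and 1 rose, 8 fell and 12 did not pass, with a median change of -0.28. The share called was 42.9%, against 23.6% of all tested genes. Of the 8 that fell, Cd3d, Cd3g and Cd7 lost their call with slide as a fixed block (adjusted p = 0.0882, 0.0684 and 0.114). The gene called higher, Rag1, encodes a recombinase subunit that B cell progenitors also use (limma adjusted p = 0.0131). Its call was lost with slide as a fixed block (adjusted p = 0.22), median scaling (0.245), a replicate block (0.0517) and when 1 array was left out (up to 0.0531). Gata3, a factor of T cell commitment, read 0.313, 0.499 and 0.445 with Ebf1 virus, against 1.98, 2.66 and 2.55 with control virus. It fell by 2.53 ± 0.22 in log2 units (limma adjusted p = 0.000167). Trat1, an adaptor of the T cell receptor, fell by 1.91 ± 0.18 and Txk, a T cell kinase, by 2.07 ± 0.23 (limma adjusted p = 0.000261 for Trat1 and 0.000639 for Txk). Il2ra, a chain of the interleukin 2 receptor, fell by 2.47 ± 0.23 (limma adjusted p = 0.000283), and its normexp change was -1.53.

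Of 17 genes of natural killer and innate lymphoid cells, 11 were tested, and 2 rose, 4 fell and 5 did not pass. The share called was 54.5%, against 23.6% of all tested genes. The granule protease Gzma read 41.9, 41.4 and 48.4 with Ebf1 virus, against 1.11, 0.919 and 1.19 with control virus, a change of 5.36 ± 0.16 (limma adjusted p = 1.18e-06). Tbx21 (T-bet), a factor of type 1 lymphocytes, rose by 3.55 ± 0.22 (limma adjusted p = 3.58e-05), or 2.10 after normexp. The cytokine receptor chains Il2rb and Il18r1 fell by 2.19 ± 0.14 and 2.11 ± 0.26 in log2 units (limma adjusted p = 3.55e-05 for Il2rb and 0.00115 for Il18r1).

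**Figure D4:**
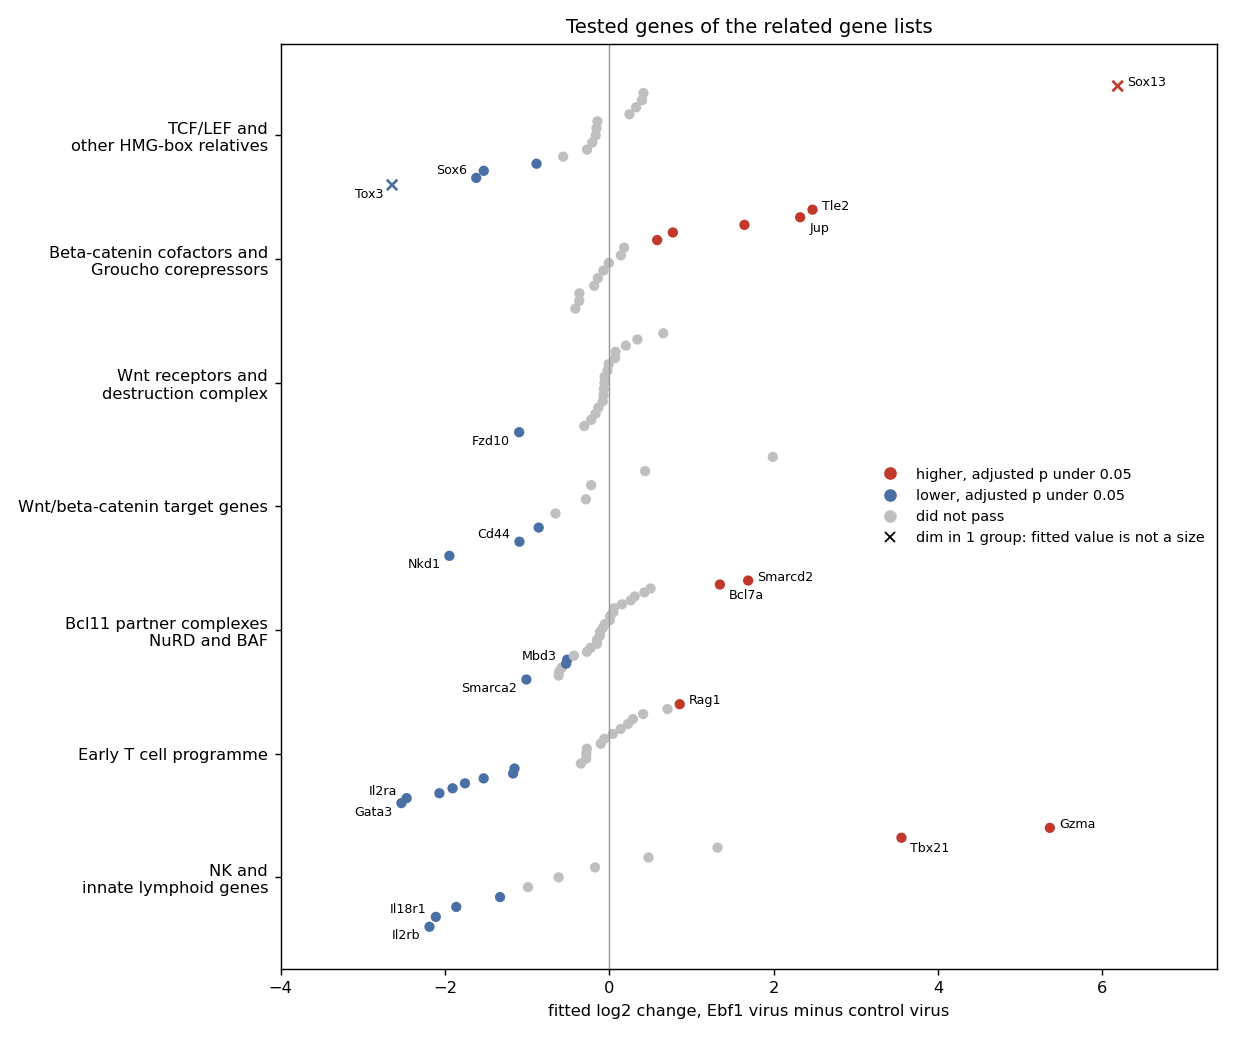
Fitted log2 change, Ebf1 virus minus control virus, of every tested gene in 7 lists related to the members, with called genes in colour and the leading genes named. Crosses mark Sox13 and Tox3, which were at background in 1 group, so that their fitted values are not sizes.

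Markers of the labelled and of other cell types were read beside these results. Of 12 markers of pre-pro-B cells, 11 were tested, and 3 rose, 5 fell and 3 did not pass. Ptprc, Il7r, Flt3, Kit and Spn were well above background on all 6 arrays, though the progenitor markers Spn (-1.60), Il7r (-1.69), Kit (-1.82), Cd93 (-1.01) and Cd34 (-1.31) were called lower, as log2 changes. Ly6d, an early mark of B lineage progenitors, was called higher, at 2.62.

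Of 8 T cell markers, 4 were tested. Cd3d (-1.76, limma adjusted p = 0.0144) and Cd3g (-1.53, limma adjusted p = 0.0059) fell, and both lost their call with slide as a fixed block. Cd3e and Lck did not pass. Their summed signal was 10.4 to 11.6 with Ebf1 virus, against 11.9 to 12.4 with control virus, and Lck made up nearly all of it. Cd8a and Ptcra were at background on all arrays. Of 5 natural killer or innate lymphoid markers on the array, 2 were tested, and Klrd1 fell (-1.86, limma adjusted p = 0.00226; 0.056 with slide as a fixed block) while Il1rl1 did not pass. Their summed signal was 0.651 to 0.927 with Ebf1 virus, against 1.76 to 2.79 with control virus.

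Of 6 myeloid markers, 3 were tested, and they did not move together. Mpo fell, Csf1r rose by 1.69 (limma adjusted p = 0.00173; 0.0597 after normexp and 0.0636 with slide as a fixed block), and Lyz2 did not pass. Their summed signal, 1.10 to 1.61 with Ebf1 virus against 3.48 to 4.88 with control virus, was mostly Mpo. Of 12 stromal feeder markers, 9 were tested, and 3 rose and 6 did not pass. Fn1 (1.07), Col5a1 (0.88) and Fstl1 (0.65) were called higher, and all 3 lost their call after median scaling (adjusted p = 0.0993 for Fn1, 0.226 for Col5a1 and 0.485 for Fstl1). The summed stromal signal was 25.4 to 33.5 with Ebf1 virus, against 16.0 to 22.6 with control virus, with Dcn and Lum at background on all arrays. This sum was mostly Pdgfrb, Col1a1 and Col1a2, which were not called (limma adjusted p = 0.0877, 0.086 and 0.0535). The part of these marker changes in those of Bcl11a, Tcf7 and Lef1 was not tested.

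The genes whose 6 array values lay nearest to those of each called member are given as a description, by the root mean square difference of log2 values centred on each gene's mean. Nearest to Bcl11a were Plin3 (0.0812), Tmem140 (0.0979) and F8 (0.107). Plin3 read 58.4, 55.2 and 68.8 with Ebf1 virus, against 14.2, 17.1 and 15.7 with control virus. For Tcf7 they were Prkce (0.121), the Groucho member Tle6 described above (0.125) and Pomgnt2 (0.138). Nearest to Lef1 were Arfgef3 (0.110), Shisa2 (0.128) and Dgke (0.129), and Arfgef3 read 0.664, 0.425 and 0.598 with Ebf1 virus, against 1.19, 1.24 and 1.29 with control virus.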

How the data were processed

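Cy3-labelled cRNA, made from total RNA with an oligo dT primer, was read on 6 Agilent arrays of 1 colour. The deposited intensity values (processed signal, background-subtracted) came from Feature Extraction 10.5.1.1 on mm9, per the file headers. The deposited series table held the same intensity within 0.1% at all 45018 features. Control features (1639) and outlier-flagged spots, 65 to 116 on each array, were removed, spots of a probe were averaged, and log2 signal was set relative to each array's 75th percentile, a signal of 316 to 364 on Ebf1 virus arrays and 239.9 to 366 on control virus arrays. No spot was saturated. The number of arrays limits the precision.

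The test was two-sided limma 3.58.1 (R 4.3.3) with no covariate, checked on simulated data. A gene takes the values of its brightest tested probe (mean of the 6 arrays), and other member probes are given too. In each list up to 4 called genes with the smallest p are named, and for each called member the 3 genes with the nearest pattern. Hmgb1, Tle3, Tcf7l1, Ctnnb1, Axin2, Sp5, Rag1, Cd7 and the Ebf1 probes are outside this rule and were chosen after their values were seen. The members and lists were chosen with earlier results of these data known. For a group at background, the bound takes the higher of the lowest measurable signal and the probe's own on each array. Of the 3 slides, 1 held Ebf1 virus replicate 1 and control virus replicate 2, 1 held 2 Ebf1 virus arrays and 1 held 2 control virus arrays. Gene names are those of the array design. Promoters are RefSeq sequences. Figures used matplotlib 3.10.9.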

Additional observations from a re-analysis of the deposited data

How the results depend on the processing

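The members' calls were 2 higher and 1 lower. Median scaling left 1256 probes called higher, no filter on dim probes 1341 higher and 655 lower, and slide as a fixed block 1269 higher and 898 lower. The fixed block rests on the only slide with both groups and called 1 member higher, since Tcf7 probe 1 (1.60) lost its call, and it also ended that of Lef1 probe 3 (-1.05). With no filter 0 members were called lower, as Lef1 probe 3 (-1.14) lost its call. Sox4 passed after normexp (-0.89), median scaling (-1.15), a trended robust prior (-0.84) and the fixed block (-1.35), so that normexp, median scaling and the trended prior called 2 members lower. Within that slide the changes were 2.42 for Tcf7 probe 2 and -1.35 for Sox4. Satb1 probe 2 reversed to -0.083 after median scaling. A random slide block had a correlation of 0.01 and called 2337 probes higher and 2070 lower. Leaving out 1 array gave 1592 to 2125 probes higher and 1016 to 1687 lower, 2 to 3 members higher and 1 lower. The third was Bcl11b without Ebf1 virus replicate 1 and Tcf7l2 without Ebf1 virus replicate 2, each of which then passed the filter only through its brighter group. Same-numbered samples did not deviate together (correlations of -0.17, -0.25 and 0.10). The highest correlation, 0.29, was between Ebf1 virus replicate 1 and control virus replicate 2, which share a slide. As slide may mask a pairing, these values cannot tell whether the numbers pair the samples. A replicate block called 1862 probes higher and 1233 lower, and 2 members higher and 1 lower. Apart from these results, the changes of the 10 tested probes kept their direction and their side of the threshold under every alternative. Dimness limits Bcl11b and Tcf7l2, whose 6 probes were near background. The cause of the lost or gained calls was not tested.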

Other observations

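B lineage genes other than the members rose as a group: of 16 genes, 12 were tested and all 12 were called higher with Ebf1 virus, 100% against 12.6% of all tested genes. Their median change was 3.71, or 1.46 after normexp. Of 16 myeloid genes, 10 were tested, and 3 rose, 5 fell and 2 did not pass, 80% called against 23.6% of all tested genes. Mpo, the neutrophil granule peroxidase, read 0.900, 1.40 and 1.33 with Ebf1 virus, against 3.40, 4.07 and 4.76 with control virus, and fell by 1.77 ± 0.22 in log2 units (limma adjusted p = 0.00114). Gfi1, a repressor of granulocyte and lymphoid progenitors, read 0.320, 0.288 and 0.257 with Ebf1 virus, against 0.723, 0.658 and 0.661 with control virus, and fell by 1.24 ± 0.15 (limma adjusted p = 0.000866; 0.0572 with slide as a fixed block). Fcgr1, a macrophage Fc receptor, fell by 2.29 ± 0.28 (limma adjusted p = 0.00101), and its normexp change was -1.04. Prtn3, a neutrophil protease, rose by 1.43 ± 0.17 (limma adjusted p = 0.000971), a call lost after normexp (adjusted p = 0.107) and with slide as a fixed block (adjusted p = 0.0537).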
